A study of Mus musculus with 15 samples.

Results

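The genes of mouse chromosome 14 were followed in map order through 15 arrays, to ask where along the chromosome the fall in signal of Myc tumours begins and where it ends. A gene was a member if a probe set listed with that gene alone was on the array and the gene lies on chromosome 14 of the GRCm38.p6 assembly (mm10). This gave 604 of the 17097 genes measured, through 1001 probe sets. Of these, 331 had a mean log2 signal over the 15 arrays above background, a level of 4.77 set by nonspecific control probe sets. The chromosome was divided into 4 sections of equal length that end at 31.2, 62.3, 93.5 and 124.7 Mb. They held 75, 144, 75 and 37 of the genes above background. The filter has a sharp edge: Sorbs3 was kept with a mean of 4.789, and Mmrn2, just under the level at 4.768, was left out.

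Each of the 15 samples, 3 in each of 5 groups, gave RNA to 1 Affymetrix HT_MG-430_PM array. For Myc primary tumours, cerebellar cells infected with Myc were injected into the cortex of nude mice, which lack T cells; these cells were Cdkn2c-/- and Trp53-/- and carried an Atoh1-GFP reporter. Myc secondary tumours arose when spheres cultured from primary Myc tumours were transplanted. Shh tumours were spontaneous medulloblastomas of Cdkn2c-/-; Trp53Fl/Fl; Nestin-Cre mice, in which Nestin-Cre deletes Trp53 in neural progenitors. GFP-positive and GFP-negative cells were sorted at postnatal day 6 from cerebella of Cdkn2c-/-, Trp53-/-, Atoh1-GFP mice, so that loss of Cdkn2c and of Trp53 is common to all 5 groups. The sample labels call these 6 samples spontaneous tumour; the design text, which calls them sorted cells, was followed here. Tumour cells had been purified on Percoll. The labels do not say whether the replicates are different animals or whether secondary tumours share a primary tumour, so p-values measure only the spread between these samples.

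Genes on 1 chromosome share no function, but they share its copy number, and a loss or gain of a whole chromosome in a tumour clone is known to lower or raise the RNA of many of its genes together. DNA was not measured here, and in bulk samples fewer cells of a type and less RNA per cell cannot be told apart. Mouse chromosome 14 carries Rb1, the brake on entry into S phase, the proteasome activator genes Psme1 and Psme2, the Zic2 and Zic5 transcription factor genes of the cerebellar lineage, and Mir17hg, the host transcript of the miR-17 to miR-92 cluster, a known Myc target.

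The promoters of 4 genes show the DNA at the ends and in the middle of the stretch of lower genes. All 4 were picked among the 57 lower genes above background whose upstream window lies outside the annotated gene. They are Abhd6, the first gene above background in map order that was lower in the secondary tumours than in GFP-negative cells, Zic5, the last such gene whose upstream window lies outside the annotated gene, Itm2b, the lower gene of section 3 with the highest mean signal, and Prxl2a, the lower gene with a Myc E-box and the highest mean. Each is the 250 bases before the first listed RefSeq start in GRCm38.p6, 5′ to 3′ on the gene's strand, with CACGTG, the E-box that Myc with Max can bind, in capitals.
Abhd6, chr14:8002638-8002887, plus strand: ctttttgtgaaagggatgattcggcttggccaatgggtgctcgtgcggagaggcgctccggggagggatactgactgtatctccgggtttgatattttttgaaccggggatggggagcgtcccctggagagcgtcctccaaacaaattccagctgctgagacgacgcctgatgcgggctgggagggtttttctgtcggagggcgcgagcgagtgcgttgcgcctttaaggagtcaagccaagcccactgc
Prxl2a, chr14:41013834-41014083, minus strand: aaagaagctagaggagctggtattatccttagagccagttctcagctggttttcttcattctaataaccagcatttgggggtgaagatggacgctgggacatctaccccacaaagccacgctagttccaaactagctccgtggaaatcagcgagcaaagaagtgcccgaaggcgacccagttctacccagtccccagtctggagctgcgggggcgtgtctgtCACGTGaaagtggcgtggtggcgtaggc
Itm2b, chr14:73385290-73385539, minus strand: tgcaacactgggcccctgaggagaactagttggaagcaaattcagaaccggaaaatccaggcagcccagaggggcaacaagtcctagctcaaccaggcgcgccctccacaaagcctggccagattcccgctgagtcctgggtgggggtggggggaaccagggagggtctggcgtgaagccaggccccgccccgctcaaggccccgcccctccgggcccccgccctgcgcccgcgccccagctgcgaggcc
Zic5, chr14:122465659-122465908, minus strand: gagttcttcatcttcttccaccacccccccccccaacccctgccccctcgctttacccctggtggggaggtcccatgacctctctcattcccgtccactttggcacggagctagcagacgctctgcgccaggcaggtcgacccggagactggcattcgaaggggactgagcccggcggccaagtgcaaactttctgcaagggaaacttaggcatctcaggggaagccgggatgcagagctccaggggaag
The E-box reads the same on both strands. A window was found for 265 of the 331 genes above background, and 18 of these windows (6.8%) held it. The share was 6.8% of the windows of lower genes (8 of 117), 14.3% of those of higher genes (3 of 21) and 5.5% of those of genes not called (7 of 127), against 7.6% of the windows of all measured genes and 6.0% of 27025 promoters. Of the 117 windows of lower genes, 57 lay outside the annotated gene and the others overlapped it. The counts are small, and a match to these letters is a description, not a binding site.

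Marker genes were checked against the labels. Cdkn2c, deleted in all 5 groups, read 3.31 to 4.12, below background on every array. Atoh1, the granule progenitor factor whose reporter was sorted on, read 8.51 to 9.29 in GFP-positive and 3.75 to 4.55 in GFP-negative cells. A list of 5 granule neuron progenitor genes averaged 9.04 to 9.39 in GFP-positive cells, 9.49 to 9.72 in Shh tumours and 5.47 to 6.34 in Myc tumours. GFP-negative cells were a mixture rich in glia: 6 astroglial genes averaged 8.84 to 10.15 there, with all 6 above background on each array, against 4.41 to 4.93 in secondary tumours, and 8 oligodendrocyte genes averaged 8.48 to 9.77 against 4.35 to 4.7. Microglial genes averaged 8.75 to 10.19 against 5.35 to 6.85. Differences from GFP-negative cells therefore move with these lists, and their part in the results was not tested. Myc primary array 2 stood apart from its group in other genes too. Its Myc signal was 5.21, against 8.41 and 9.0 on arrays 1 and 3, and its astroglial list averaged 4.23, against 6.94 and 7.20. Myc read 6.68 to 7.39 in GFP-positive cells, 8.55 to 8.7 in GFP-negative cells and 8.15 to 9.13 in Shh tumours. This signal thus did not set primary arrays 1 and 3 apart from GFP-negative cells or Shh tumours. Myc primary array 3 was high for other cell types: its oligodendrocyte list averaged 8.91, against 5.58 and 4.55 on arrays 1 and 2, its endothelial list 7.10, against 5.46 and 5.37, and its fibroblast list 7.08, against 4.96 and 5.43. The part of these lists in the primary values was not tested. GFP-negative array 3 read low over most genes, with a median difference from the GFP-positive mean of -0.40 over the genes of the other autosomes, though not over those with a mean between background and 6, where this median was 0.13.

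Chromosome 14 lay below the other autosomes on all 6 Myc tumour arrays, by little on primary array 2, and not on the 3 Shh arrays. For each array, the difference of each gene from the mean of the 3 GFP-positive arrays was taken, and the median over the 331 genes was compared with the same median over the genes of the other 18 autosomes. The chromosome was chosen from a comparison of Myc primary with Shh tumours, and these differences are the values by which it was to be described. They are given without a test. In the secondary tumours the chromosome 14 median was -0.73, -0.76 and -0.72, while the other autosomes stood at -0.01, 0.11 and 0.13. The gap was -0.72, -0.87 and -0.85. The median ratio to GFP-positive cells on chromosome 14 was thus 60.6%, 54.6% and 55.3% of that on the other autosomes. The 3 arrays lay close together. In the primary tumours the gap was -0.90 on array 1, -0.17 on array 2 and -0.63 on array 3, or 53.6%, 88.6% and 64.8%. The primary arrays thus spread from a value beyond all secondary arrays to a value nearer to that of the sorted cells. Shh tumours had gaps of 0.02, 0.03 and 0.01, and GFP-negative cells of 0.02, 0.01 and 0.01, including array 3, whose shift was as large on the other chromosomes.

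No other autosome had a lower median than chromosome 14 on Myc primary arrays 1 and 3 or on the 3 secondary arrays. On primary array 2 chromosome 16 was lower, at -0.62. Chromosome 16 was the next lowest on primary arrays 1 (-0.68) and 3 (-0.11) and on secondary arrays 2 (-0.57) and 3 (-0.50), and chromosome 7 on secondary array 1 (-0.40).

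**Figure D1:**
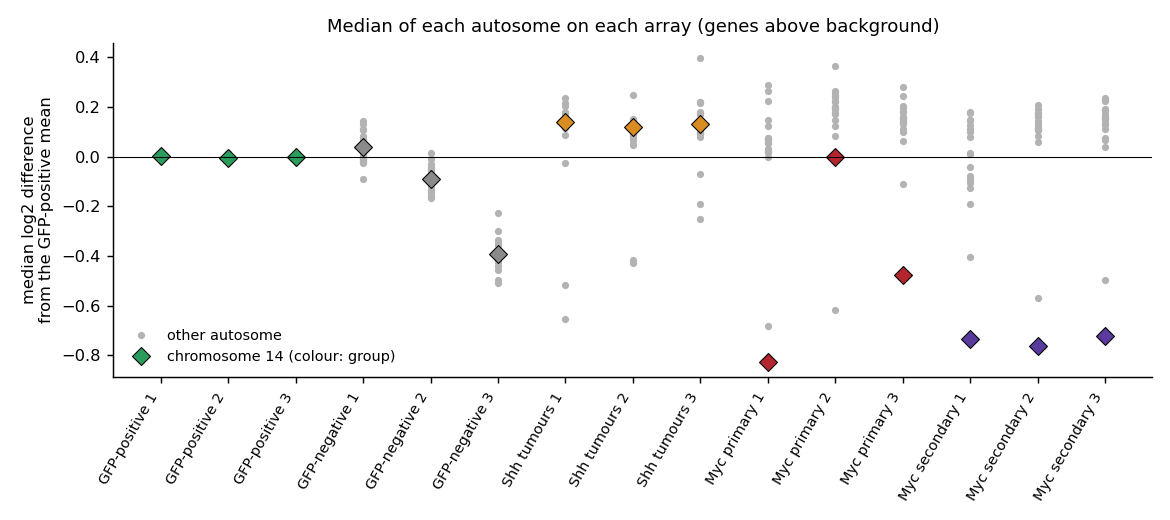
Median log2 difference from the GFP-positive mean for each autosome (grey points) and for chromosome 14 (coloured diamonds), over genes above background, on each of the 15 arrays. The diamonds of the secondary tumours lie between -0.76 and -0.72, below every grey point of their array, and those of the Shh tumours lie between 0.12 and 0.14, within the grey points.

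The shift was spread over many genes. On the secondary arrays 69.8%, 70.7% and 71.3% of the 331 genes lay below the lowest GFP-positive array, against 44.8%, 38.9% and 37.3% of the genes of the other autosomes. On primary arrays 1, 2 and 3 the share was 77.3%, 44.1% and 64.7%, against 40.3%, 35.4% and 35.1%. On the Shh arrays it was 27.2%, 30.8% and 30.8%, against 32.0%, 32.6% and 32.7%. In secondary tumours 20.2%, 19.9% and 18.4% of the chromosome's genes lay above the highest GFP-positive array, against 43.8%, 49.1% and 50.2% of the genes of the other autosomes.

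All 4 sections were lower in the secondary tumours. The mean of the 3 array medians was -0.65 ± 0.08 (SD, n = 3) in section 1, -0.59 ± 0.04 in section 2, -0.93 ± 0.08 in section 3 and -0.84 ± 0.03 in section 4. By array, section 1 read -0.74, -0.60 and -0.61, and section 3 read -0.88, -1.02 and -0.90. Against GFP-positive cells section 3 was the lowest on each of the 3 arrays, on array 1 narrowly, with -0.85 in section 4. Against Shh tumours section 4 was lower, at -1.11, with -0.86 in section 3. Against GFP-negative cells sections 3 and 4 stood at -0.76 and -0.75. In the primary tumours the means against GFP-positive cells were -0.41 ± 0.43, -0.33 ± 0.38, -0.66 ± 0.40 and -0.53 ± 0.39, with a spread between arrays about as large as the means. Array 1 read -0.78, -0.71, -0.96 and -0.91 from section 1 to section 4, and array 3 read -0.52, -0.33, -0.81 and -0.55. Array 2 read 0.06, 0.05, -0.22 and -0.14. Without array 2 the primary means were -0.65, -0.52, -0.89 and -0.73, and without array 1 they were -0.23, -0.14, -0.51 and -0.34, so these 2 arrays set the size of the primary values.

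Shh tumours gave 0.13 ± 0.06, 0.16 ± 0.03, -0.01 ± 0.05 and 0.12 ± 0.17 (SD, n = 3). Relative to the other autosomes, section 3 of the Shh tumours stood at -0.14, -0.14 and -0.08. Primary array 2 stood at -0.11, -0.13, -0.39 and -0.31 in the 4 sections. GFP-negative cells gave -0.10 ± 0.19, -0.20 ± 0.22, -0.16 ± 0.23 and -0.12 ± 0.26.

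**Figure D2:**
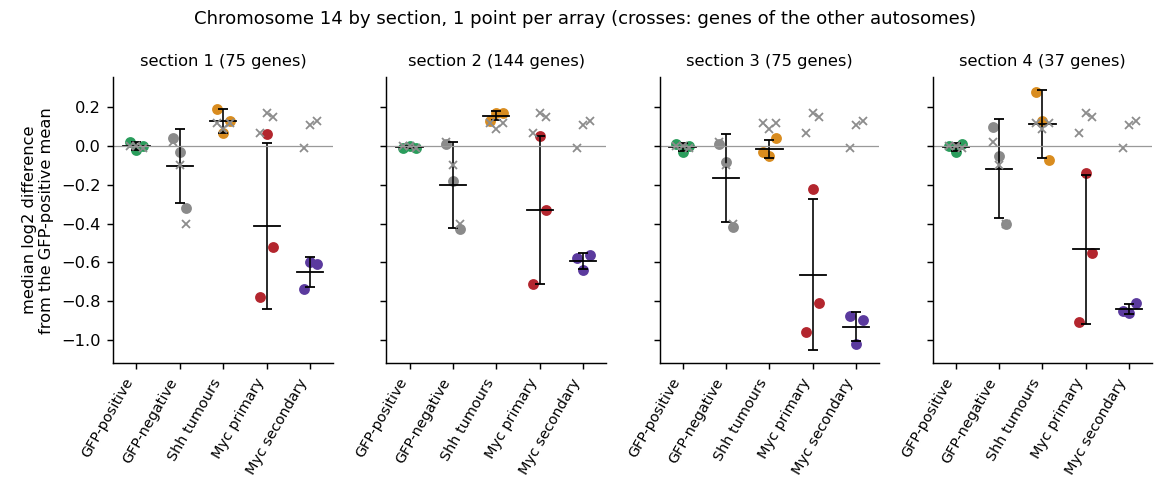
Median log2 difference from the GFP-positive mean over the genes above background of each section of chromosome 14, 1 point per array, with group mean (line) and SD (bar); crosses are the medians of the genes of the other autosomes. In each section the 3 Myc secondary points lie below -0.5, and the Myc primary points are widely spread.

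Between primary arrays the size of the fall changed by about the same amount in each section. Array 1 minus array 2 had a median of -0.81, -0.93, -0.87 and -0.93 from section 1 to section 4, against -0.09 over the genes of the other autosomes. Array 3 minus array 2 had medians of -0.45, -0.49, -0.56 and -0.41, against -0.01. This comparison holds no GFP-positive array.

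No edge of the fall was found inside the chromosome at the scale of 31 neighbouring genes. A running median over 31 neighbouring genes gave 301 windows per array. Such windows cannot show an edge that lies within the first or the last of them. All 301 lay below the array's own median of the other autosomes on primary arrays 1 and 3 and on the 3 secondary arrays, and 274 did so on primary array 2. The number was 114 to 177 on the other 9 arrays. On primary array 1 the windows ran from -1.30 to -0.38 and on primary array 3 from -0.88 to -0.11. On the secondary arrays they ran from -1.37 to -0.24, from -1.29 to -0.19 and from -1.19 to -0.21. On the Shh arrays the lowest window was -0.15, -0.23 and -0.20, and the highest was 0.39, 0.30 and 0.34.

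Both ends of the chromosome were low. The first window ran from 2610042L04Rik to Ppp3cb, 4.3 to 20.5 Mb, and read -0.83, -0.53 and -0.60 in the secondary tumours and -0.79, 0.14 and -0.44 in the primary tumours. The last window ran from Uchl3 to Nalcn, 101.7 to 123.6 Mb, and read -1.20, -0.86 and -0.81 in the secondary and -0.87, -0.14 and -0.49 in the primary tumours. The deepest windows of primary arrays 1 and 3 and of the secondary arrays were centred on Fbxo16, Pnoc or Ccdc25, between 65.3 and 65.8 Mb; windows at this place were also the lowest on Shh array 1 and GFP-negative arrays 1 and 3. The shallowest windows of secondary arrays 2 and 3 were centred on Prxl2a at 41.0 Mb, where primary array 2 also had its highest window, of 0.30. That of secondary array 1, of -0.24, was centred on Esd at 74.7 Mb, in section 3.

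**Figure D3:**
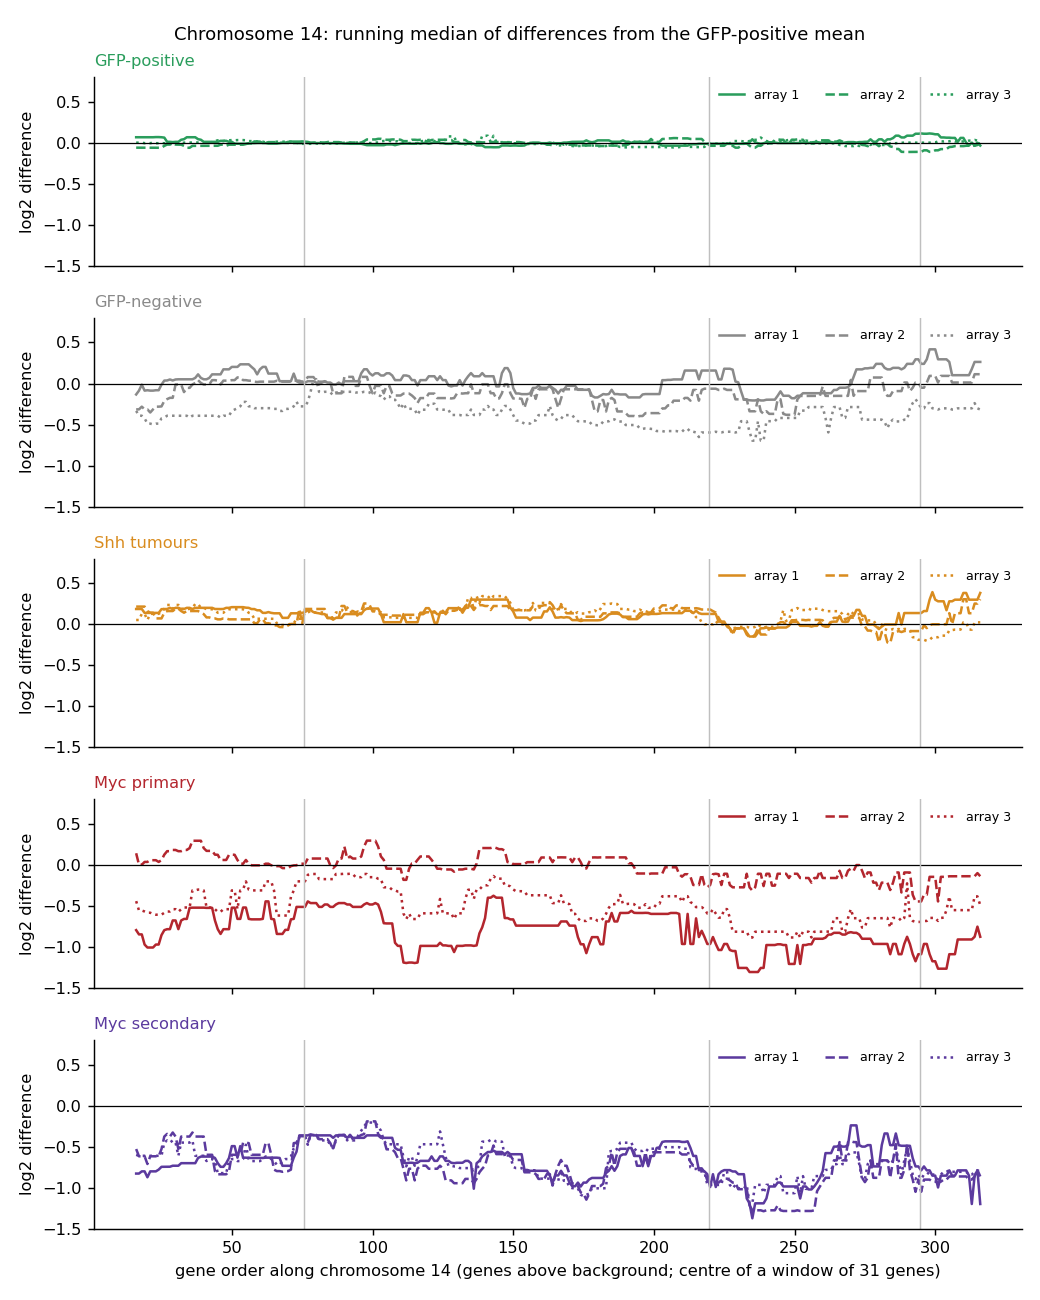
Running median of the log2 difference from the GFP-positive mean over 31 neighbouring genes, in gene order along chromosome 14, 1 line per array and 1 panel per group; vertical lines mark the sections. The lines of the secondary tumours and of primary arrays 1 and 3 stay below 0 from the first window to the last, and those of the Shh tumours move around 0.

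A fit of a single lower stretch of at least 30 genes gave borders that differed between arrays and settings. For the mean of the secondary tumours the stretch ran from Fam124a at 62.6 Mb to Rb1 at 73.3 Mb, 46 genes with a median of -1.12, but the genes outside it still had a median of -0.64. The fit removed 1.55% of the absolute deviation. Without secondary array 1 the stretch ran from 47.4 to 122.5 Mb. For the mean of the primary tumours it ran from Cdadc1 at 59.6 Mb to Slitrk1 at 108.9 Mb, 106 genes with a median of -0.71, against -0.35 outside. This fit removed 1.73% of the absolute deviation. On the mean of the Shh tumours the same fit took in 330 of the 331 genes, with a median of 0.13, and removed 1.89%. The Myc fits thus removed no more than the Shh fit. Primary array 2 alone gave 59.6 to 111.7 Mb, with -0.24 inside and 0.07 outside. Primary array 3 alone gave 62.6 to 111.7 Mb, with -0.81 inside and -0.36 outside. Without any 1 array the stretch of the primary mean began at 59.6 to 62.6 and ended at 108.9 to 111.7 Mb. On primary array 1 alone the stretch took in 329 of the 331 genes. On secondary arrays 2 and 3 it ran from Dlgap5 at 47.4 Mb to Zic2 at 122.5 Mb. On secondary array 1 it ran from Fam124a to Nefm at 68.1 Mb, 31 genes with a median of -1.37 against -0.64 outside. These stretches overlap between 62.6 and 68.1 Mb in section 3; stretches found with squared deviations or another reference group did not all include that part.

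The size of the fall depended on the signal. Over the 64 genes with a mean between background and 6, chromosome 14 minus the other autosomes read -0.60, -0.81 and -0.79 on the secondary arrays. Over the 125 genes between 6 and 8 it read -0.78, -0.99 and -0.91, and over the 103 genes between 8 and 10 it read -0.71, -0.82 and -0.90. Over the 39 genes of 10 and above it was -0.44, -0.49 and -0.52. Primary array 1 was also deepest between 6 and 8 and shallowest in the brightest class, with -0.90, -1.05, -0.88 and -0.54 from the dimmest class to the brightest. Array 2 read -0.26, -0.24, -0.13 and 0.04, and array 3 read -0.43, -0.81, -0.63 and -0.44, so the order of the classes was not the same on the 3 primary arrays.

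Single genes were tested in comparisons that do not contain the GFP-positive arrays. All p-values below are from limma's moderated test, adjusted by the Benjamini-Hochberg method over the 17097 genes, and a gene is said to be lower, to fall, to be higher or to rise at an adjusted p below 0.05. The secondary arrays also enter the differences from GFP-positive cells above, so these tests change the reference and not the tumours. The Shh and Myc primary arrays took part in the choice of the chromosome, so later tests that hold them are not independent of that choice. Between secondary tumours and GFP-negative cells, 187 of the 604 genes (31%) were lower and 37 (6.1%) higher, against 18.0% lower and 19.4% higher of all 17097 genes. Among the 331 genes above background 145 were lower and 26 higher, 43.8% and 7.9%, against 22.9% and 29.6% of all 10096 genes above background. Their median difference was -0.69, against 0.11 over all genes above background. This filter took the mean over all arrays, GFP-negative ones included, so a gene bright in those cells alone could pass it. From section 1 to section 4, the secondary mean was below background for 11, 20, 10 and 4 of the 331 genes. The GFP-negative mean was below background for 0, 8, 3 and 0 of them. The filter can thus favour lower calls, and its part in the 145 was not tested. Genes of all chromosomes passed the same filter. With each array centred on its median gene the split over the 604 genes was 119 lower and 206 higher, because this scaling moves the median of all genes from 0.05 to 0.58; the median of the 604 genes then went from -0.16 to 0.38, below that of all genes under both scalings. All 119 were among the 187. A model term for the earlier and the later run of title numbers also separates most of these groups. Only the GFP-negative cells had arrays in both runs, so with this term the secondary tumours are set against GFP-negative array 3 alone. The median of the 604 genes was then -0.21, against 0.01 over all genes. Without Myc primary array 3, GFP-negative array 3 and Myc secondary array 1, a choice made after seeing the data that kept primary array 2, the counts were 200 lower and 46 higher.

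Lower genes were found from end to end. They made up 28 of 75 genes above background in section 1, 58 of 144 in section 2, 41 of 75 in section 3 and 18 of 37 in section 4, or 37.3%, 40.3%, 54.7% and 48.6%. The higher genes numbered 4, 13, 5 and 4. The median difference was -0.59, -0.56, -0.75 and -0.71.

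Shh tumours against the same GFP-negative arrays gave 87 lower (14.4%) and 65 higher genes (10.8%) of 604, against 13.1% and 16.0% of all genes. Over genes above background the median was 0.30 on chromosome 14 and 0.24 over all chromosomes. The 2 comparisons share their GFP-negative arrays, and the difference between them was not tested.

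**Figure D4:**
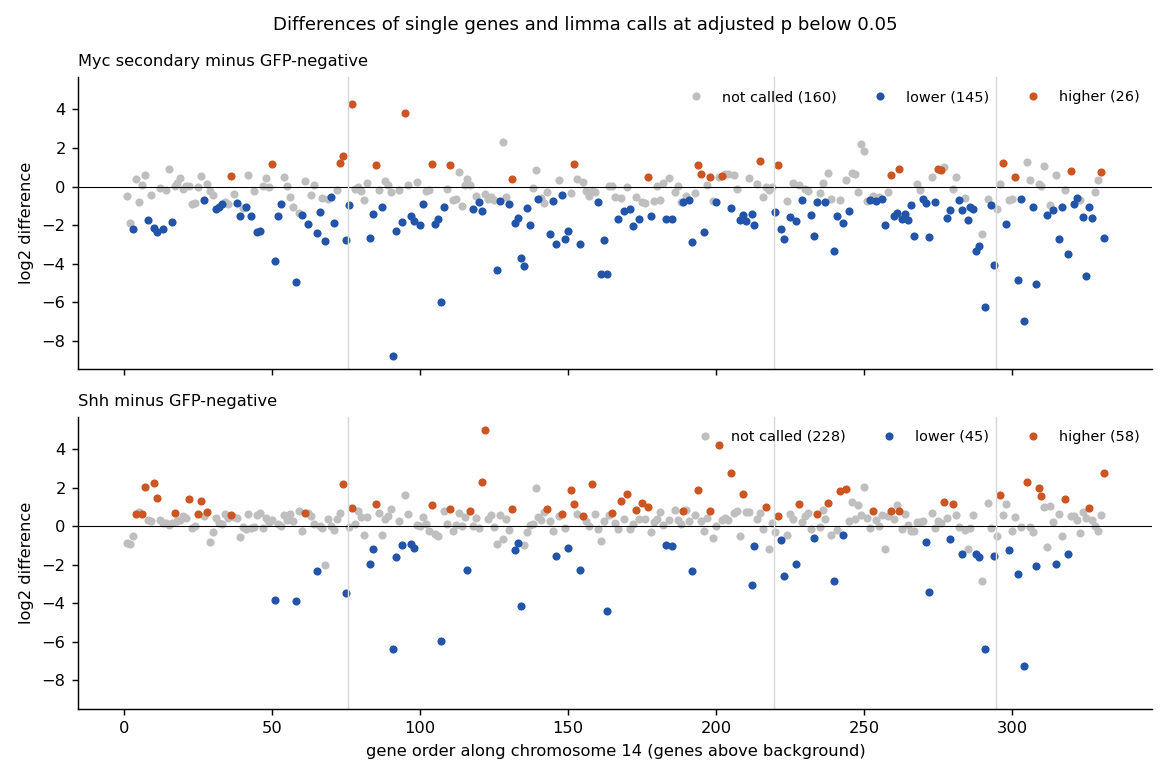
Log2 difference from GFP-negative cells for each of the 331 genes above background, in gene order along chromosome 14, for Myc secondary tumours (upper panel) and Shh tumours (lower panel); blue genes were lower and orange genes higher at an adjusted p below 0.05. Blue points (145) run along the whole upper panel, and the lower panel shows both colours along its length.

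The outermost lower genes lie near the ends of the chromosome. Abhd6, a lipid hydrolase gene at 8002888 to 8056773, read 7.53, 7.19 and 7.45 in GFP-positive cells, 8.31, 7.91 and 7.32 in GFP-negative cells and 7.59, 7.86 and 6.52 in Shh tumours. It read 6.54, 7.17 and 7.09 in primary and 5.50, 5.58 and 5.83 in secondary tumours. The secondary arrays lie below all others, and the difference from GFP-negative cells was -2.21 ± 0.32 (SE; adjusted p = 0.00016). Nalcn, a sodium leak channel gene at 123275678 to 123627330, read 7.55, 6.62 and 5.72 in GFP-negative cells and 3.79, 3.72 and 4.29 in secondary tumours, below background on all 3 arrays. The mean of the GFP-negative cells was at least 3.63-fold higher (adjusted p = 0.00013). In Shh tumours Nalcn rose, by 2.74 ± 0.39 (adjusted p = 0.00021).

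Among cell cycle and tumour suppressor genes, 6 of 17 were lower in secondary tumours than in GFP-negative cells, 1 was higher and 10 were not called, with a list median of -0.26 against 0.05 over all genes. The background for this and the lists that follow is 31% lower and 6.1% higher on the whole chromosome, or 43.8% and 7.9% of its genes above background, and 18.0% and 19.4% of all genes; all 17 members were above background, and their share of lower genes lay near that of the chromosome. Rb1 read 10.51, 10.24 and 10.32 in GFP-positive cells, 10.13, 9.78 and 9.47 in GFP-negative cells and 10.18, 9.94 and 9.50 in Shh tumours. It read 8.14, 9.16 and 8.86 in primary and 8.22, 7.75 and 8.21 in secondary tumours. No Myc array overlapped the other groups, and the secondary tumours differed from GFP-negative cells by -1.74 ± 0.26 (SE; adjusted p = 0.00021), while Shh tumours did so by 0.08 ± 0.26 (adjusted p = 0.87). The mitotic kinase gene Pbk fell by 0.81 ± 0.25 on the log2 scale (adjusted p = 0.022), and Kif13b, a kinesin, fell by 0.69 ± 0.14 (adjusted p = 0.0018). Lats2, a Hippo pathway kinase, was below background in the secondary tumours and at least 3.58-fold higher in GFP-negative cells. Cdkn3, a phosphatase of cyclin-dependent kinases, passed narrowly at -1.08 ± 0.40 (adjusted p = 0.049), with arrays that overlapped. The 1 gene that rose was Apex1, a base excision repair endonuclease, by 0.40 ± 0.15 (adjusted p = 0.046). Bap1 and Pbrm1, chromatin tumour suppressors, differed by -0.03 ± 0.31 and -0.18 ± 0.17 and were not called. In Shh tumours none of the 17 fell and 4 rose.

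The neural development list had the most lower genes, 12 of 22, with none higher and a median of -0.56, against 31% lower and 6.1% higher on the whole chromosome. Only 11 of the 22 were above background, and 5 of the 12 lower genes (Sox21, Nrg3, Klf5, Lmo7 and Slitrk6) had means below it. In Shh tumours 7 of the 22 were lower and 5 higher. Ednrb, the endothelin receptor of glial and neural crest cells, read 12.49, 11.76 and 12.25 in GFP-negative cells, 4.20, 4.14 and 4.54 in GFP-positive cells and 5.53, 4.78 and 5.22 in secondary tumours. Its fall from GFP-negative cells was 6.99 ± 0.51 in secondary tumours (adjusted p = 7.6e-07) and 7.23 ± 0.51 in Shh tumours (adjusted p = 9.5e-07). The GFP-negative arrays also had the highest means of the astroglial list, and a link was not tested. The Wnt ligand gene Wnt5a and the Bmp ligand gene Bmp4 were at least 20.1-fold and 26.4-fold higher in GFP-negative cells than in the secondary tumours, where both were below background, and both fell in Shh tumours as well.

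Zic2 and Zic5 lie side by side in section 4. Zic2 read 8.67, 9.61 and 9.87 in GFP-positive cells, 6.99, 7.04 and 7.60 in GFP-negative cells and 7.70, 7.40 and 7.46 in Shh tumours. It read 5.20, 6.5 and 5.94 in primary and 5.65, 5.22 and 5.81 in secondary tumours, which fell from GFP-negative cells by 1.65 ± 0.34 (adjusted p = 0.0021). Zic5 fell by 1.07 ± 0.25 in secondary tumours (adjusted p = 0.0049) and rose by 0.94 ± 0.25 in Shh tumours (adjusted p = 0.014); the difference between these effects was not tested. Spry2, a feedback inhibitor of receptor tyrosine kinases, fell by 5.05 ± 0.37 in secondary and by 2.05 ± 0.37 in Shh tumours. Klf12 fell by 1.92 ± 0.49 in secondary tumours (adjusted p = 0.0079), with 1.17 ± 0.49 in Shh tumours (adjusted p = 0.097). Otx2, a homeobox gene, rose by 4.99 ± 0.63 in Shh tumours (adjusted p = 9.7e-05), and its value in secondary tumours was -0.37 ± 0.63 (adjusted p = 0.70).

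Of 14 genes of neuronal structure and signalling, 6 were lower and none higher, with a median of -0.63, against 31% and 6.1% on the whole chromosome. Dpysl2, a microtubule-binding protein of growing axons, read 12.67, 12.59 and 12.57 in GFP-negative cells, 12.54, 12.42 and 12.53 in GFP-positive cells and 11.08, 10.54 and 10.52 in secondary tumours. It fell by 1.89 ± 0.16 (adjusted p = 2.7e-06), and in Shh tumours by 0.47 ± 0.16 (adjusted p = 0.049). Ppp3cb, a catalytic subunit of calcineurin near the start of the chromosome, fell by 1.18 ± 0.23 (adjusted p = 0.0012). Cacna1d, a calcium channel subunit, was below background in secondary tumours and at least 2.38-fold higher in GFP-negative cells. The neurofilament genes Nefl and Nefm went the other way without being called, at 2.20 ± 1.04 (adjusted p = 0.12) and 1.85 ± 0.75 (adjusted p = 0.074). Secondary array 1 was low for both, at 4.24 and 5.24, while arrays 2 and 3 read 7.87 to 8.36 for Nefm and Nefl.

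The housekeeping lists held calls in both directions. Of 11 proteasome and folding genes 3 were lower, 3 were higher and 5 were not called (median 0.16). The lower ones included the neighbouring Psme1 and Psme2, the alpha and beta subunits of the 11S proteasome activator, at 55.6 Mb. Psme1 read 10.19, 10.30 and 10.02 in GFP-negative cells, 10.13, 10.19 and 10.55 in Shh tumours, 8.43, 9.33 and 8.93 in primary tumours and 8.60, 7.93 and 7.82 in secondary tumours. It fell by 2.05 ± 0.23 (adjusted p = 2.2e-05) and Psme2 by 1.68 ± 0.27 (adjusted p = 0.00033). The third was Dnajc3, an endoplasmic reticulum co-chaperone. The higher ones were the importin Ipo5 at 0.83 ± 0.26 (adjusted p = 0.024), the exportin Xpo4 at 0.66 ± 0.19 and the ubiquitin hydrolase Uchl3 at 0.50 ± 0.17. Psmb5, a catalytic subunit of the core proteasome, was at 0.23 ± 0.14 (adjusted p = 0.26).

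Of 15 genes of RNA and translation, 4 were lower, 3 higher and 8 not called (median 0.10). Prmt5, an arginine methyltransferase of splicing factors and histones, read 8.79, 8.40 and 7.67 in GFP-negative cells, 9.24, 10.42 and 9.69 in primary and 9.64, 9.34 and 9.40 in secondary tumours. It rose by 1.17 ± 0.30 in secondary tumours (adjusted p = 0.0077) and by 1.14 ± 0.30 in Shh tumours (adjusted p = 0.013). Dis3, an exosome ribonuclease, rose by 1.22 ± 0.26 (adjusted p = 0.0025), and Pabpn1, the nuclear poly(A)-binding protein, fell by 0.81 ± 0.13 (adjusted p = 0.00027). Of 14 metabolic genes 5 were lower and 2 higher (median -0.27). Glud1, glutamate dehydrogenase, read 11.54, 10.52 and 10.93 in GFP-negative cells and 8.77, 8.63 and 8.64 in secondary tumours, a fall of 2.32 ± 0.23 (adjusted p = 8.3e-06). It also fell in Shh tumours, by 1.62 ± 0.23 (adjusted p = 0.00025). Bnip3l, a mitophagy receptor, fell by 1.25 ± 0.31 in secondary tumours (adjusted p = 0.0067), with 0.29 in Shh tumours.

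Against GFP-positive cells, as a description, the list medians in secondary tumours were -0.85 for cell cycle and tumour suppressor genes, -2.56 for neural development, -1.98 for neuronal structure, -0.22 for proteasome and folding, -0.21 for RNA and translation and -0.31 for metabolism. In Shh tumours the same medians were -0.04, 0.28, -0.26, 0.08, 0.18 and 0.21. The 2 neural lists had 11 of 22 and 8 of 14 genes above background. Their medians lay far below the -0.76 to -0.72 of the chromosome's 331 genes above background.

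**Figure D5:**
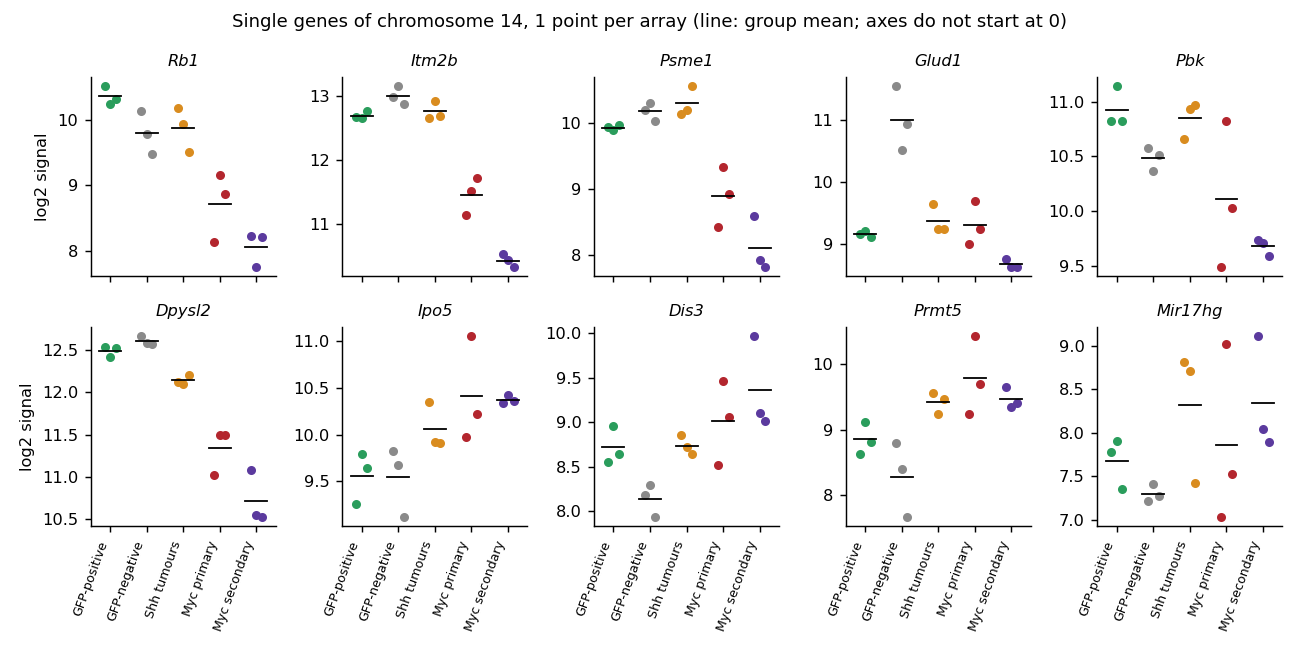
Log2 signal of 10 genes of chromosome 14 on each array (points) with the group mean (line). Rb1, Itm2b, Psme1, Glud1, Pbk and Dpysl2 are lower in the secondary tumours than in GFP-negative cells, Ipo5, Dis3 and Prmt5 are higher, and Mir17hg, at 1.05 ± 0.49, was not called.

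The brightest genes of each section, chosen by mean signal alone, fell in section 3 and mostly did not elsewhere. Itm2b, a membrane protein of neurons and glia at 73362226 to 73385289, close to Rb1, read 12.67, 12.65 and 12.76 in GFP-positive cells, 12.98, 13.15 and 12.87 in GFP-negative cells and 12.66, 12.92 and 12.69 in Shh tumours. It read 11.15, 11.51 and 11.72 in primary and 10.53, 10.44 and 10.33 in secondary tumours, where it fell by 2.56 ± 0.15 (adjusted p = 1.2e-07). All 3 secondary arrays lay below the primary ones. Dpysl2 and Tsc22d1, a leucine zipper transcription regulator at -1.63 ± 0.19 (adjusted p = 2.3e-05), complete that section. In section 1 the ribosomal protein genes Rps24 and Rpl15 and the transketolase gene Tkt were not called, at -0.03 ± 0.12, 0.20 ± 0.13 and 0.08 ± 0.18. In section 2, Pabpn1 fell, and Hnrnpc and Timm23 were at -0.07 ± 0.11 and 0.27 ± 0.17. In section 4, Mycbp2, a ubiquitin ligase gene, fell by 0.65 ± 0.14 (adjusted p = 0.003), and Ipo5 and Uchl3 rose.

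Further large falls from GFP-negative cells are given beside the values of the Shh tumours, which share those reference arrays; genes with only a clone name were left out. Gdf10, a Bmp family gene of Bergmann glia, was at least 155-fold higher in GFP-negative cells, with readings of 12.56, 11.56 and 12.00 against 3.39, 3.35 and 3.03 in secondary tumours, and it fell by 6.35 ± 0.40 in Shh tumours. Clu, a secreted chaperone of astrocytes, fell by 3.36 ± 0.76 and by 2.83 ± 0.76, and Zcchc24 by 3.86 ± 0.27 and by 3.84 ± 0.27. Pcdh9, a protocadherin gene, fell by 4.05 ± 0.39 in secondary and by 1.54 ± 0.39 in Shh tumours, and Elf1, an Ets factor, by 3.32 ± 0.39 and by 1.46 ± 0.39. Kctd12 fell by 4.86 ± 0.54 in secondary and by 2.46 ± 0.54 in Shh tumours, and Cmtm5 was at least 13.9-fold higher in GFP-negative cells than in either tumour group. Among the rises named by the same rule the largest were those of Sema3g, a secreted semaphorin, and Cdhr1, a photoreceptor cadherin. Sema3g read 3.76, 3.85 and 3.65 in GFP-negative cells, below background, and 8.26, 7.91 and 7.95 in secondary tumours, at least 9.66-fold higher (adjusted p = 7.6e-07). Cdhr1 was at least 8.01-fold higher (adjusted p = 0.0008).

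Mir17hg, at 115044390 to 115046728, was chosen after its values were seen. It read 7.22, 7.41 and 7.27 in GFP-negative cells, 7.03, 9.02 and 7.52 in primary and 9.11, 8.04 and 7.89 in secondary tumours. The secondary arrays lay above the GFP-negative ones, but the difference of 1.05 ± 0.49 was not called (adjusted p = 0.12).

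Some genes rest on the probe set chosen. Of 4 probe sets of Ints6, which rose by 1.13 ± 0.10, the other 3 had the opposite sign, and the mean of all 4 was at -0.04. Of 5 probe sets of Rps24, 3 above background had the opposite sign. The same held for 3 of 7 probe sets of Cdadc1, at the border of the primary stretch, and for 1 of 3 of Hnrnpc, at 0.71. The 2 probe sets of Tkt read 0.08 and 0.97. With each array centred on its median gene, Pabpn1 (-0.28), Mycbp2 (-0.11), Kif13b (-0.16), Zic5 (-0.53), Dnajc3 (-0.52), Bnip3l (-0.71), Pbk (-0.27) and Cdkn3 (-0.55) were no longer called. With cyclic loess Apex1 (0.05), Uchl3 (0.16), Ipo5 (0.49) and Xpo4 (0.51) were no longer called. Apex1 was also lost on the 6 arrays alone (adjusted p = 0.12) and over genes above background only (0.055). Leaving out any 1 of the GFP-negative arrays or secondary arrays 2 or 3 also lost it (0.062 to 0.15). Bnip3l was lost with the mean of probe sets (-0.61, adjusted p = 0.25). Among the named genes, 19 calls were lost with centring, 4 with cyclic loess and 8 with the mean of probe sets. On the 6 arrays alone 14 were lost, and 7 to 15 without any 1 array. Calls under the run term, which rests on GFP-negative array 3, are not counted here.

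Secondary and primary Myc tumours differed in few single genes. Of 604 genes 3 were lower in the secondary tumours (0.5%) and none was higher, against 0.462% and 0.257% of all genes; 86 had an unadjusted p below 0.05. The 3 were Itm2b, at -1.03 ± 0.15 (adjusted p = 0.011), the copine gene Cpne6, at -1.70 ± 0.34 (adjusted p = 0.044), and Extl3, a heparan sulphate glycosyltransferase gene, at -0.99 ± 0.20 (adjusted p = 0.049). Cpne6 and Extl3 were named after their values were seen. The median difference over the 331 genes was -0.33, against -0.09 over all genes above background. By section it was -0.32, -0.32, -0.32 and -0.34, nearly equal along the chromosome. Over all 604 genes it was -0.13, and it was -0.22 without primary array 1 but -0.03 without primary array 2, where all genes stood at -0.02. The count of lower genes was 26 without primary array 1, and it was 1 without primary array 3, without secondary array 2 or without secondary array 3.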

How the data were processed

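The authors deposited log2 values made by RMA (robust multi-array averaging) in Partek 6.5, per the submitters' processing notes; RMA settings and a genome build are not given in the sources used here. They were used as deposited. Of 45141 probe sets, 104 controls and 551 listed with several genes were left out, as were 15588 without a listed gene. The 28898 with 1 gene were placed by gene identifier in GRCm38.p6 (209 were not matched, and 8 genes of chromosome 14 were placed by symbol). A gene was represented by its probe set of highest mean; 250 of the 604 had several. For background, the 95th percentile was taken over 23 nonspecific controls.

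The tests used limma 3.58.1 (R 4.3.3), lmFit and eBayes in 1 fit over 5 groups (10 residual and 2.54 prior degrees of freedom), two-sided, Benjamini-Hochberg over 17097 genes. The fit was tested on simulated data. The number of arrays limits the precision. Comparisons with GFP-positive cells were described only.

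The members and lists were chosen with earlier results of these data known. Named genes were, per section of the chromosome, the 3 of highest mean and the 3 largest falls and 2 largest rises among called genes whose arrays did not overlap (predicted and clone-named genes left out), plus genes at the borders and list members; others are said to be chosen after their values were seen. Abhd6 and Nalcn are the outermost lower genes, and Prxl2a was chosen for its promoter. A fold written as "at least" sets the brighter group's mean against the background level, where the dimmer group was below it on all 3 arrays.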

Additional observations from a re-analysis of the deposited data

Results flagged for a closer look

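The Myc secondary and the Shh tumours lay on opposite sides of the GFP-positive level. All 3 secondary arrays lay below 0 and all 3 Shh arrays above 0 for the median over the chromosome 14 genes above background, and the difference between the groups' means of these medians was -0.87. The Shh medians of 0.14, 0.12 and 0.13 lay beside those of the other autosomes on the same arrays, 0.12, 0.09 and 0.12. The same held in section 1 of the chromosome, where the difference was -0.78, and in section 2, where it was -0.75. These differences were not tested, since both groups are set against the same GFP-positive arrays that define the values. In sections 3 and 4 the Shh arrays lay on both sides of 0.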

How the results depend on the processing

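No paired analysis was possible because the labels give no replicate numbers. In secondary tumours against GFP-negative cells, the lower count was 119 and the higher count 206 with arrays centred on the median gene, and the higher count was 18 on the 6 arrays alone. For Shh tumours the counts were 46 lower over genes above background only, 126 higher with centring and 43 higher with the run term. In this comparison the run term gives the same fit as leaving out GFP-negative array 3. For secondary against primary tumours, lower and higher counts were 6 and 2 with the mean of probe sets, 1 and 3 with centring and 5 and 4 with cyclic loess. With the run term, whose size rests on GFP-negative array 3 against the other GFP-negative arrays, they were 13 and 5. Without Myc primary 3, GFP-negative 3 and Myc secondary 1 (chosen after seeing the data) they were 5 and 1. The lower count was 0 on the 6 arrays alone, with 51 lower genes at an unadjusted p below 0.05. The higher count was 1 with an intensity trend. Without a filter on dim genes the primary medians were -0.11 in section 3 and -0.07 in section 4, and the secondary medians -0.14, -0.06, -0.13 and -0.13 in sections 1 to 4. Secondary medians were -1.02 (section 3) and -0.94 (section 4) with a mean of at least 6; -0.54, -0.82 and -0.77 (sections 1, 3 and 4) with the mean of probe sets; -0.50, -0.46, -0.65 and -0.61 with centring; -0.55, -0.76 and -0.75 (sections 1, 3 and 4) against GFP-negative cells; -0.74, -0.75 and -1.11 (sections 1, 2 and 4) against Shh tumours; and -0.54 (section 2) with equal gene numbers. Against Shh tumours section 3 of the secondary tumours stood at -0.86, so section 4 was the lowest there. All section medians of the Myc groups stayed below 0 under the alternatives run. The lower stretch of the primary mean ran from 79.4 to 122.5 Mb with squared deviations or against Shh tumours, and from 72.5 to 105.9 Mb against GFP-negative cells. That of the secondary mean began at 47.4 and ended at 122.5 Mb with squared deviations, ran from 47.3 to 111.7 Mb with every group mean above background, ended at 122.5 Mb with a mean of at least 6 or the mean of probe sets, ran from 78.6 to 122.5 Mb against GFP-negative cells, and ran from 51.9 to 55.7 Mb against Shh tumours.

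Leaving out 1 array at a time gave 155 to 198 lower and 20 to 46 higher genes for secondary tumours against GFP-negative cells (20 without secondary array 2, 23 without secondary array 3), 64 to 89 lower and 43 to 68 higher for Shh tumours (43 without GFP-negative array 3), and 1 to 26 lower and 0 higher for secondary against primary tumours. Section medians ranged, in order, from -0.65 to -0.23, -0.52 to -0.14, -0.89 to -0.51 and -0.73 to -0.34 in primary tumours, and from -0.70 to -0.60, -0.61 to -0.57, -0.96 to -0.89 and -0.88 to -0.77 in secondary tumours. The stretch began at 59.6 to 62.6 and ended at 108.9 to 111.7 Mb in primary tumours, and at 47.4 to 62.6 and 68.1 to 122.5 Mb in secondary tumours. Among named genes called in the main or the other setting, the sign turned with centring for Chrna2 (0.50), Hnrnpc (0.47), Nrg3 (0.16) and Rps24 (0.50), and with the mean of probe sets for Ints6 (-0.04); none of these but Nrg3 and Ints6 had been called. Genes called in neither setting also turned, such as Bap1 (0.50) and Bmpr1a (0.42) with centring. The cause was not tested.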
